A study of Homo sapiens with 12 samples.

Results

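A set of 10 genes of prostaglandin and eicosanoid metabolism was followed in A549 cells, an established line from a human lung adenocarcinoma, after knockdown of FAM60A or of SDS3. The members were PLA2G4A, PTGS1, PTGS2, PTGES, HPGD, PTGER2, PTGER4, CYP4F3, CYP4F11 and ALOX5, and every probe set annotated to 1 of these genes was taken. That gave 22 of the 54675 probe sets of the array and 10 of its 19775 genes. All 10 were among the 18621 genes that passed a filter on low signal and were tested. The 10 genes were selected on their role with their log2 changes in both knockdowns already known, so all their values below describe the arrays and none is used as a test. The arrays formed 4 groups of 3. In the FAM60A experiment cells given an siRNA against FAM60A (now SINHCAF) were set against cells given a non-targeting siRNA. In the SDS3 experiment cells given an siRNA against SDS3 (now SUDS3) were set against their own non-targeting controls. All 12 wells were transfected with 50 nM siRNA and lysed 3 days later, so the controls went through transfection too. The treatment text names 1 siRNA against FAM60A and 1 non-targeting siRNA and does not name the one against SDS3, so each knockdown rests on what may be a single siRNA in a single cell line. The wells were plated in triplicate, so a spread between the 3 arrays of a group may be technical.

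Eicosanoids are signalling lipids made from arachidonic acid. Cytosolic phospholipase A2, encoded by PLA2G4A, frees arachidonic acid from membranes. The cyclooxygenases PTGS1, made constitutively in many tissues, and PTGS2, which is inducible, turn it into prostaglandin H2, and PTGES converts that into prostaglandin E2 (PGE2). PGE2 signals through receptors that include PTGER2 and PTGER4, and HPGD begins its breakdown. The lipoxygenase ALOX5 opens the other main branch, that of the leukotrienes, while CYP4F3 and CYP4F11 are cytochrome P450 enzymes that hydroxylate the end of fatty acid chains. CYP4F3 is known for inactivating leukotriene B4 in this way. In lung cancer cells PTGS2 and PGE2 are studied for their part in growth and inflammation. FAM60A and SDS3 are known subunits of the SIN3-HDAC complex, which removes acetyl groups from histones.

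Each target was low in the arrays labelled with its siRNA. SINHCAF stood at 15.5% of its control level in the FAM60A knockdown, and SUDS3 at 33.4% in the SDS3 knockdown. Array medians of the linear signal ran from 186.01 to 192.56 in the FAM60A experiment, above the 96.82 to 98.32 of the SDS3 experiment, and levels were therefore compared only within an experiment. The epithelial markers KRT8, KRT18, KRT19, EPCAM and CDH1 were all measured on both sets of arrays, where they read between log2 6.91 and 15.09. All 5 were lower in the SDS3 knockdown, where 18.8% of all tested genes were lower, furthest CDH1 (log2 change -1.52). In the FAM60A knockdown EPCAM (-1.22) and CDH1 (-0.49) were lower and KRT19 (0.50) was higher. Of all tested genes 17.6% were lower and 19.2% higher there. Their part in the results below was not tested. Of 18 markers of leukocytes, endothelium, platelets and mast cells, which A549 cultures should lack, 16 were measured. Their log2 readings spanned 4.42 to 8.69 in the FAM60A experiment and 3.52 to 7.92 in the SDS3 experiment. A probe set inside such a range may show a low level or background, which the arrays cannot tell apart. The CDH1 mean of 7.07 with the SDS3 siRNA lay inside it, so the size of that fall rests on a level not shown to be above background. Some of these absent-cell markers were themselves called lower, KIT (-0.40) and CPA3 (-0.21) in the FAM60A knockdown and CD14 (-0.28) and PF4 (-0.25) in the SDS3 knockdown. In each knockdown 12 others were tested and not called. A call can therefore occur at readings in this range. The summed signal of the leukocyte markers ran from 999 to 1008 in the FAM60A controls and from 997 to 1094 with the siRNA, and from 561 to 581 in the SDS3 controls and from 533 to 567 with the siRNA.

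The clearest falls were in the genes for arachidonic acid release (PLA2G4A), inducible prostaglandin synthesis (PTGS2) and fatty acid omega-hydroxylation (CYP4F3 and CYP4F11), and all 4 stood lower in both knockdowns. PTGES was lower in the SDS3 knockdown, and HPGD was higher in the FAM60A knockdown. The cyclooxygenase PTGS1, the receptors PTGER2 and PTGER4 and the lipoxygenase ALOX5 stayed within 0.16 of control on the log2 scale in both. A gene counted as called at a limma adjusted p under 0.05 in the fit across all tested genes. In the FAM60A knockdown 5 of the 10 members were called, 1 higher and 4 lower, where 36.8% of all tested genes were called (19.2% higher and 17.6% lower). In the SDS3 knockdown 5 were called, 0 higher and 5 lower, against 34.6% of all genes (15.8% higher and 18.8% lower). At a change of at least 1.5-fold as well, 3 members were called in the FAM60A knockdown (7.34% of all genes) and 4 in the SDS3 knockdown (6.96%), all lower. Because both contrasts were known when the members were listed, nothing is read from the counts. The median log2 change of the 10 members was -0.12 in the FAM60A knockdown and -0.29 in the SDS3 knockdown, and that of all tested genes was -0.023 and 0.006.

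**Figure D1:**
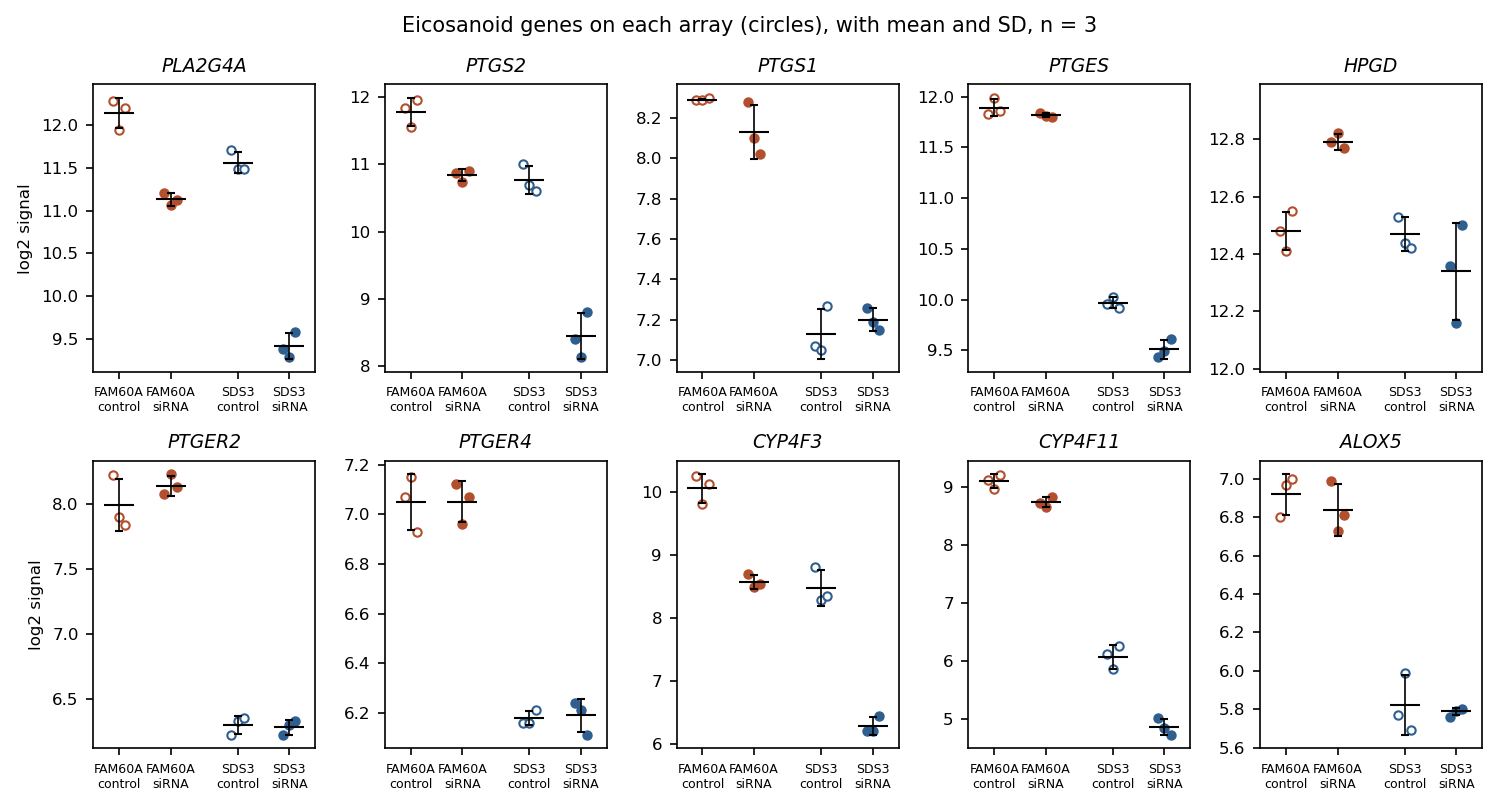
Log2 signal of the 10 genes (1 panel each, brightest probe set) on every array, with open circles for controls, filled circles for siRNA arrays, and bars for the mean and SD of 3 arrays. In PLA2G4A, PTGS2, CYP4F3 and CYP4F11 every siRNA array lies below every control array of its experiment, while in PTGER4 and ALOX5 the groups overlap.

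**Figure D2:**
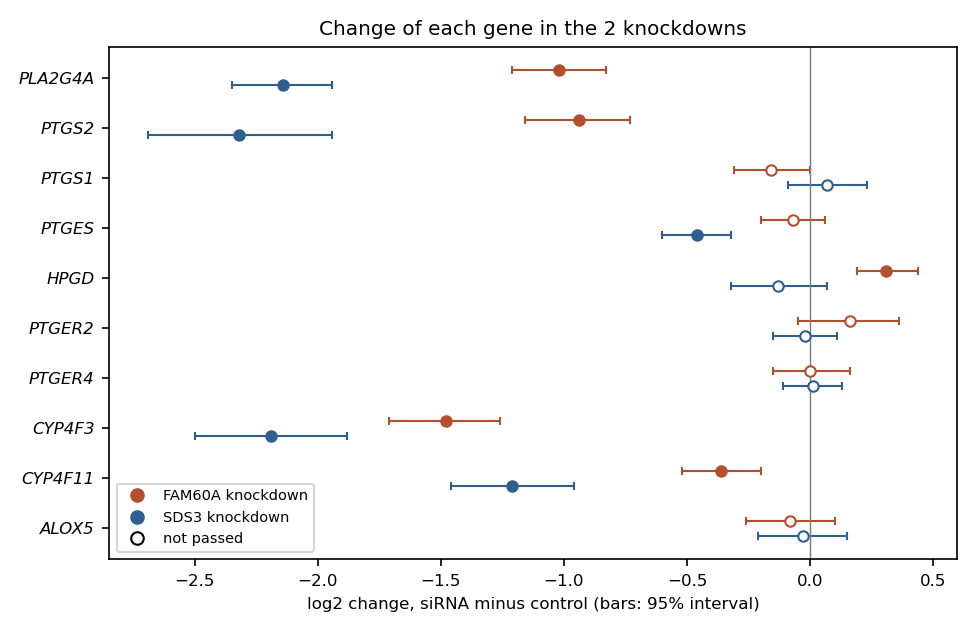
Log2 change (siRNA minus control) of the 10 genes in the FAM60A and SDS3 knockdowns, with 95% intervals of the limma fit and open symbols where the adjusted p missed 0.05. PTGS2 stands at -0.94 and -2.32 and PLA2G4A at -1.02 and -2.14, whereas both changes of PTGER4 lie at 0.00 and 0.01.

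PLA2G4A, the phospholipase that supplies the pathway, read log2 12.28, 11.94 and 12.20 in the 3 FAM60A controls and 11.21, 11.06 and 11.12 with the FAM60A siRNA. The groups did not overlap, as was the case for 48.1% of all tested genes in this experiment. Its level fell by 1.02 on the log2 scale (SE 0.0856), to 49.4% of control. The SDS3 controls read 11.71, 11.49 and 11.48 and the SDS3 siRNA arrays 9.38, 9.29 and 9.58. Again every siRNA array was lower than every control. In this experiment the groups did not overlap, in one or the other direction, for 47.6% of all tested genes. The level fell by 2.14 (SE 0.0902), to 22.6% of control.

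PTGS2, the inducible cyclooxygenase, read 11.84, 11.55 and 11.96 in the FAM60A controls and 10.87, 10.74 and 10.91 with the siRNA. It fell by 0.94 on the log2 scale (SE 0.0971), to 52.0% of control. Its SDS3 controls read 11.01, 10.70 and 10.61, and the siRNA arrays 8.41, 8.14 and 8.81. It fell by 2.32 (SE 0.164), to 20.1% of control, with all 3 siRNA arrays lower than any control. The siRNA group had the widest spread of the 4 groups for this gene (SD 0.339, n = 3), with replicate 3 as its highest array. A further, dimmer probe set of PTGS2 was lower too. Its controls lay at 10.29, 9.90 and 10.53 in the FAM60A experiment and its siRNA arrays at 9.16, 9.24 and 9.47, and it fell by 0.95 (SE 0.143). With the SDS3 siRNA it fell by 2.59 (SE 0.197), from 8.89, 8.72 and 8.67 in controls to 6.13, 5.72 and 6.65. Those 3 siRNA readings lay in the range of the markers that A549 cells should lack, so the size of that fall rests on a level not shown to be above background.

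PTGS2 and PLA2G4A lie next to each other on chromosome 1 with 0 protein-coding genes between them in RefSeq's annotation of GRCh38.p14. They are read from opposite strands, and their start sites are 149 kb apart. The 250 bases before each start are shown because the levels of both genes moved together while their promoters differ. The window of PTGS2 is chr1:186680424-186680673 (minus strand) and that of PLA2G4A chr1:186828699-186828948 (plus strand), both from RefSeq and both 5′ to 3′, with motif matches in capitals.
PTGS2: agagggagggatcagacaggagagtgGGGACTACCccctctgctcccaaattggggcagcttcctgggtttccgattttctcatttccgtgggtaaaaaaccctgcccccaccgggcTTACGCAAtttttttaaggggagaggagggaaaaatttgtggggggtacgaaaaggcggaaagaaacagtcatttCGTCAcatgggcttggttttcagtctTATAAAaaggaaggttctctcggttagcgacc
PLA2G4A: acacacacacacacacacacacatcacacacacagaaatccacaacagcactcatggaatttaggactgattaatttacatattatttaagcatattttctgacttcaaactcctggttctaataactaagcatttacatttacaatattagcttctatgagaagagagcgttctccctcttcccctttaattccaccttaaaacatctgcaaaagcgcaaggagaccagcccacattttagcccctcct
A set of 8 motifs was searched on both strands, with letters chosen while the PTGS2 window was in view. The TATA box was searched as TATAAA and a C/EBP site as TTNCGNAA. An NF-kappa B site was searched by its first letters, GGGACTNNC, and the cyclic AMP response element by part of it, TGACG. An AP-1 site was searched as TGANTCA and the E-box bound by factors of the MYC and USF families as CACGTG. The GC box bound by SP1 was searched as GGGCGG, and the core of the antioxidant response element as TGACNNNGC. The capitals in the PTGS2 window mark GGGACTACC at 224 to 216 bases before the start, TTACGCAA at 133 to 126, CGTCA, which is TGACG on the other strand, at 58 to 54, and TATAAA at 32 to 27. The C/EBP letters as searched read alike on both strands. None of the 8 was found in the PLA2G4A window. Over 35116 promoter windows of the same length, 10.7% held the TATA box, 2.18% the C/EBP letters, 4.6% the NF-kappa B letters and 21.2% the letters TGACG. A match describes the letters and was not set against binding of any factor.

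Other genes of this stretch of chromosome 1 were measured on the same arrays. ODR4, beyond PTGS2, was lower in both knockdowns, by 0.24 (limma adjusted p = 0.00614) in the FAM60A experiment and by 0.39 (limma adjusted p = 0.000585) in the SDS3 experiment. TPR, the next gene outward, changed by -0.12 and -0.07, and neither passed. PDC, between ODR4 and PTGS2, and BRINP3 and RGS18, beyond PLA2G4A, did not reach the signal needed for a test. These neighbours were taken by position alone.

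**Figure D3:**
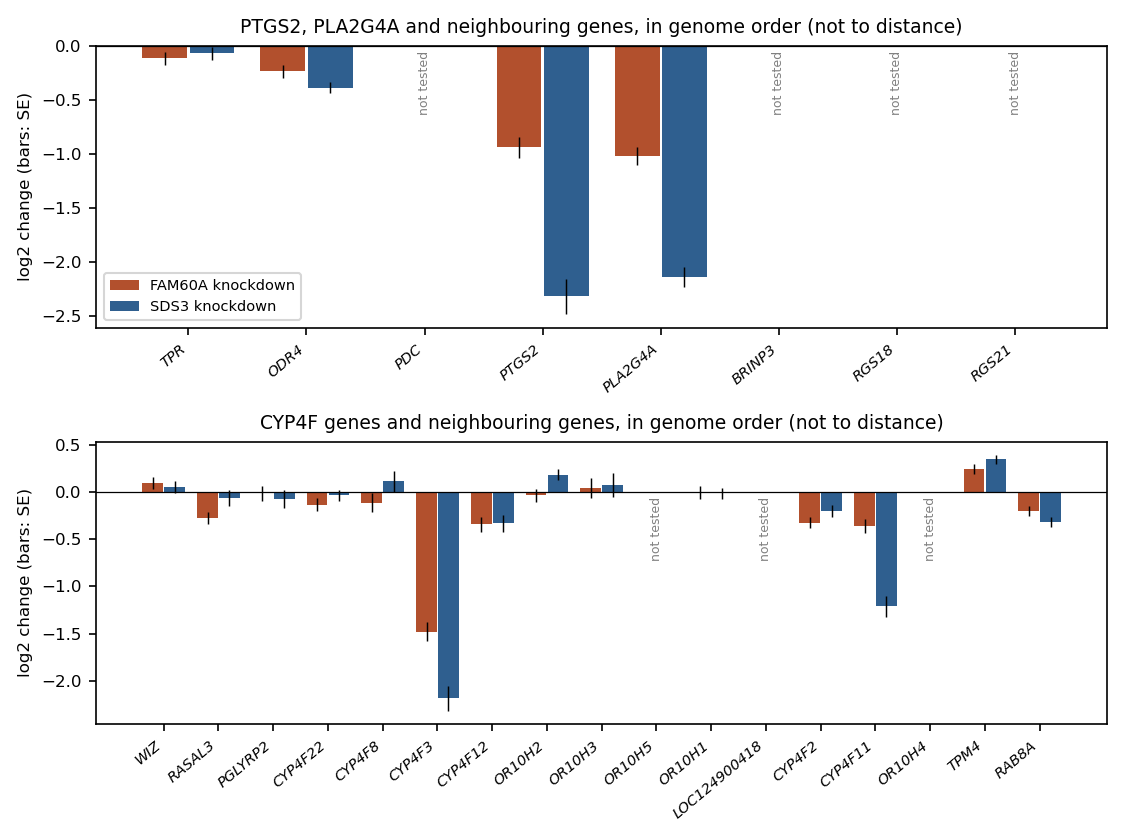
Log2 change (siRNA minus control, bars with SE) of genes in genome order around PTGS2 and PLA2G4A (top) and across the CYP4F genes (bottom), with distances not to scale and untested genes marked. PTGS2 and PLA2G4A reach -2.32 and -2.14 in the SDS3 knockdown beside ODR4 at -0.39, and CYP4F3 and CYP4F11 stand at -2.19 and -1.21 in a row where CYP4F8 and CYP4F22 did not pass.

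PTGS1, the constitutive cyclooxygenase, read 8.29, 8.29 and 8.30 in the FAM60A controls and 8.28, 8.10 and 8.02 with the siRNA. All 3 siRNA arrays were lower, replicate 1 only just, and the change of -0.16 (SE 0.0701) was not called. It was called at -0.23 without FAM60A siRNA replicate 1 and at -0.19 after quantile normalization of the 12 arrays. On the SDS3 arrays PTGS1 read 7.07, 7.05 and 7.27 in controls and 7.26, 7.19 and 7.15 with the siRNA, a change of 0.07 (SE 0.0709) in overlapping groups. Among its 4 probe sets 1 was lower there, by 0.30 (SE 0.0579), and the other 3 were not called, so its probe sets disagree. With the mean of its probe sets the change was -0.11. Every reading of PTGS1 lay in the range of the markers that A549 cells should lack.

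PTGES, the inducible PGE2 synthase that often works beside PTGS2, read 11.83, 11.99 and 11.86 in the FAM60A controls and 11.84, 11.81 and 11.80 with the siRNA. The groups overlapped, and the change of -0.07 had a 95% interval from -0.20 to 0.06. The SDS3 arrays gave 9.96, 10.03 and 9.92 in controls and 9.43, 9.49 and 9.61 with the siRNA. It fell by 0.46 (SE 0.0626), to 72.8% of control, with no overlap. Its other probe set fell by 0.45 (SE 0.0842) in the SDS3 knockdown and changed by -0.15 (SE 0.0596) in the FAM60A knockdown, where it was not called. Both falls were smaller on the log2 scale than that of PTGS2 in the same arrays.

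HPGD, the dehydrogenase that starts prostaglandin inactivation, was the only member with a higher call. It read 12.48, 12.41 and 12.55 in the FAM60A controls and 12.79, 12.82 and 12.77 with the siRNA. It rose by 0.31 (SE 0.0576), 1.24-fold, and every siRNA array was above every control. Of its 4 probe sets 2 were called higher, at 0.31 and 0.25, and the others changed by 0.06 and 0.10. All 4, like every probe set of PTGES and ALOX5, are of the class that can bind related transcripts, so HPGD could not be read without them. The rise was 0.21 and not called when arrays were scaled on spiked-in control RNAs, a scaling that moved the median of all genes from -0.023 to -0.124 in this knockdown and from 0.006 to -0.317 in the SDS3 knockdown. On the SDS3 arrays HPGD read 12.53, 12.44 and 12.42 in controls and 12.36, 12.16 and 12.50 with the siRNA, where the groups overlapped and the change of -0.13 (SE 0.0844) was not called. Among its 4 probe sets 1 fell by 0.47 (SE 0.0697) there. The change was -0.22 with the mean of its probe sets and -0.45 with the spiked-in scaling, and both of these were called.

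PTGER2, a PGE2 receptor that raises cyclic AMP, read 8.22, 7.90 and 7.84 in the FAM60A controls and 8.08, 8.23 and 8.13 with the siRNA, a change of 0.16 (SE 0.0923). The highest control stood apart from its group, and without FAM60A control replicate 1 the change was 0.27 and was called. Its SDS3 arrays read 6.22, 6.33 and 6.35 and then 6.22, 6.30 and 6.33, a change of -0.02 (SE 0.0576). PTGER4, the other cyclic AMP-linked PGE2 receptor, read 7.07, 7.15 and 6.93 in the FAM60A controls and 7.12, 6.96 and 7.07 with the siRNA. The change was 0.00, with a 95% interval from -0.15 to 0.16. On the SDS3 arrays PTGER4 read 6.16, 6.16 and 6.21 and then 6.24, 6.21 and 6.11, a change of 0.01 (95% interval -0.11 to 0.13). Its dimmer probe set changed by 0.33 (SE 0.116) in the SDS3 knockdown, with overlapping groups and no call. Both receptors read within the range of the absent-cell markers, so the arrays do not show whether their RNA was present. With the spiked-in scaling PTGER2 was called lower in the SDS3 knockdown, at -0.34, close to the shift of all genes under that scaling.

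CYP4F3, the omega-hydroxylase of leukotriene B4, had the largest FAM60A fall of the 10 genes. It read 10.24, 9.80 and 10.12 in the FAM60A controls and 8.69, 8.49 and 8.53 with the siRNA. It fell by 1.48 (SE 0.104), to 35.7% of control. With the SDS3 siRNA it fell by 2.19 (SE 0.135), to 21.9% of control, from 8.80, 8.28 and 8.34 in controls to 6.20, 6.20 and 6.45. The groups were far apart in both experiments. The siRNA arrays came down to the upper end of the range of the absent-cell markers in the FAM60A experiment and into it in the SDS3 experiment, so the 21.9% rests on a level not shown to be above background. A further probe set is annotated to CYP4F2 and CYP4F3 together and was counted with neither. It was lower in both knockdowns, by 0.62 (SE 0.0677) and 0.58 (SE 0.0928).

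CYP4F11, a related omega-hydroxylase, read 9.12, 8.96 and 9.21 in the FAM60A controls and 8.73, 8.65 and 8.83 with the siRNA. It fell by 0.36 (SE 0.0745), to 77.9% of control. Its SDS3 levels were 6.12, 5.86 and 6.26 in controls and 5.02, 4.86 and 4.74 with the siRNA. All siRNA arrays were lower than all controls, and their mean of 4.87 lay under the log2 level of 5 used as the lower limit. With the siRNA mean set to that limit, CYP4F11 was 2.11-fold lower in the SDS3 knockdown. Its measured level fell by 1.21 (SE 0.109), and the 95% interval of the change ran from -1.46 to -0.96. Neither fall is a minimum, because the control readings too were not shown to be above background. The CYP4F11 readings in the SDS3 experiment all lay in the range of the absent-cell markers, and the FAM60A siRNA readings came down to its upper end.

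CYP4F3 and CYP4F11 belong to a row of CYP4F genes on chromosome 19, and the start of CYP4F3 lies 293 kb from the inner RefSeq start of CYP4F11. In the FAM60A knockdown CYP4F3 fell by 1.48 and CYP4F11 by 0.36. The extents in the SDS3 knockdown cannot be compared, because readings of both genes there lay in the range of the absent-cell markers. Their promoter windows are shown because these related genes fell to different extents in the FAM60A knockdown. That of CYP4F3 is chr19:15641062-15641311 (plus strand), and the one before the outermost RefSeq start of CYP4F11 is chr19:15934868-15935117 (minus strand), both from GRCh38.p14, 5′ to 3′, with motif matches in capitals.
CYP4F3: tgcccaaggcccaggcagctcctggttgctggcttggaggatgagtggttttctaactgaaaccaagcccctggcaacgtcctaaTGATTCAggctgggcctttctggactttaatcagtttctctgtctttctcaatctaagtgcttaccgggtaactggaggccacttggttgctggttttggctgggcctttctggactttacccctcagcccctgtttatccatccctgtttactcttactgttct
CYP4F11: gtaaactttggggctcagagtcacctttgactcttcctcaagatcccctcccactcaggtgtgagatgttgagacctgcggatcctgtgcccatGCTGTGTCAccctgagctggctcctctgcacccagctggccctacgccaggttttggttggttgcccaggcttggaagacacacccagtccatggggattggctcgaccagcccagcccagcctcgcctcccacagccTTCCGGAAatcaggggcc
The capitals in CYP4F3 mark the AP-1 letters TGATTCA at 165 to 159 bases before the start. Those in CYP4F11 mark GCTGTGTCA, the antioxidant response letters on the other strand, at 156 to 148, and TTCCGGAA, a C/EBP match on both strands, at 18 to 11. Another start of CYP4F11 lies further in, and the window before it held TGATTCA at 137 to 131 and GGGACTGCC at 224 to 216. Over 211 aligned bases that inner window and the CYP4F3 window shared 175, or 82.9%. The AP-1 letters occurred in 6.57% and the antioxidant response letters in 10.9% of all 35116 windows. The members had 12 windows, none of them for ALOX5, which was therefore not searched. Of the 12, 6 held the GC box, which 42.6% of all windows held, and 0 held the E-box, found in 6.34% of all windows.

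All 6 CYP4F genes of this row were tested. Of these, 4 (CYP4F3, CYP4F11, CYP4F12 and CYP4F2) were lower in both knockdowns, and CYP4F8 and CYP4F22 were called in neither. Of all tested genes 8.76% were lower in both, and CYP4F3 and CYP4F11 were listed with their changes known, so nothing is read from the count. CYP4F12 fell by 0.34 (limma adjusted p = 0.00724) and 0.33 (limma adjusted p = 0.0218). CYP4F2, which makes hydroxyeicosatetraenoic acid from arachidonic acid, fell by 0.32 (limma adjusted p = 0.00212) and 0.20 (limma adjusted p = 0.0406). The second of these calls was lost without any one of SDS3 control replicates 2 and 3 and siRNA replicates 1 and 3, with changes from -0.20 to -0.15. The probe sets of CYP4F2 and CYP4F12 are of the class that can bind related transcripts, so part of their signal may belong to another CYP4F gene. TPM4 and RAB8A, on the far side of CYP4F11, went opposite ways, with TPM4 higher by 0.25 (limma adjusted p = 0.00323) and 0.35 (limma adjusted p = 0.000818). RAB8A was lower by 0.20 (limma adjusted p = 0.0156) and 0.31 (limma adjusted p = 0.00182).

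ALOX5, the first enzyme of leukotriene synthesis, read 6.80, 6.97 and 7.0 in the FAM60A controls and 6.99, 6.73 and 6.81 with the siRNA, a change of -0.08 (SE 0.0798). Its SDS3 levels were 5.77, 5.99 and 5.69 and then 5.76, 5.79 and 5.80, a change of -0.03 (SE 0.0774). The groups overlapped in both, and 3 of its 4 probe sets passed the filter on low signal with none called. Averaging its probe sets turned the sign, to 0.09 and 0.08. With the spiked-in scaling it was called lower in the SDS3 knockdown, at -0.35. Its readings lay in the range of the absent-cell markers throughout.

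Of the 22 probe sets of the 10 genes, 21 passed the filter on low signal. In the FAM60A knockdown 2 were called higher and 5 lower, against 26.8% of all tested probe sets called (14.7% higher and 12.1% lower). The SDS3 knockdown had 0 higher and 9 lower, against 24.2% (11.0% higher and 13.2% lower). The difference had 0 higher and 10 lower, against 16.9% (6.28% higher and 10.6% lower). At least 1.5-fold was reached by 4, 5 and 5 of these, against 5.67%, 5.42% and 4.63% of all tested probe sets. No gene had probe sets called in opposite directions within a knockdown. The genes whose probe sets split between a call and none were HPGD in both knockdowns and PTGS1 in the SDS3 knockdown.

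**Figure D4:**
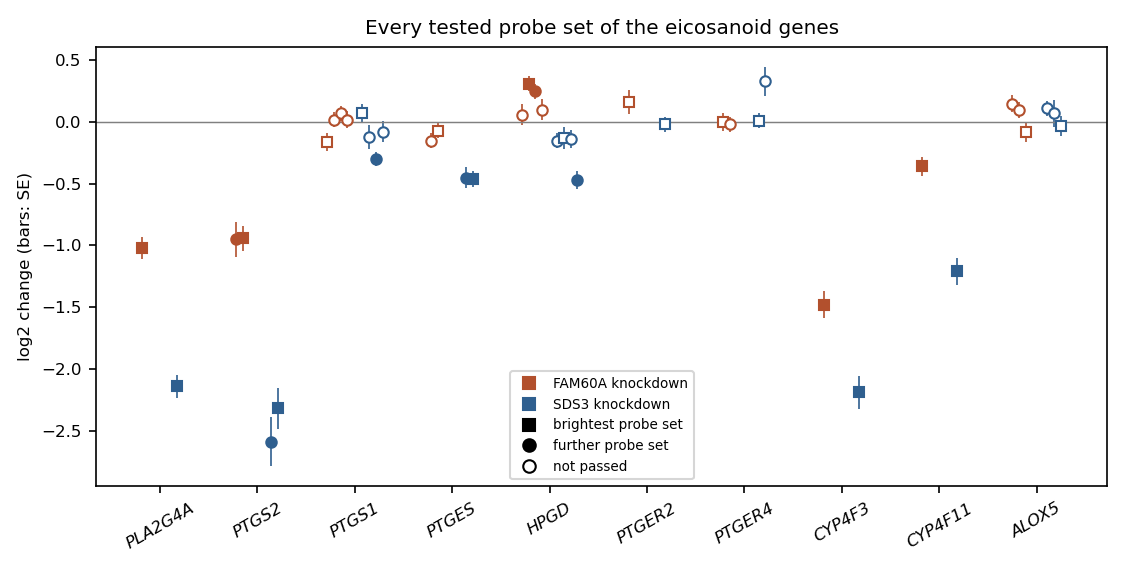
Log2 change (siRNA minus control, bars with SE) of the 21 tested probe sets of the 10 genes, with squares for the brightest probe set of a gene, circles for further ones and open symbols where the adjusted p missed 0.05. The PTGS2 probe sets lie at -0.95 and -0.94 in the FAM60A knockdown and at -2.59 and -2.32 in the SDS3 knockdown, while those of HPGD spread from 0.06 to 0.31 and from -0.47 to -0.13.

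The changes in the SDS3 knockdown were set against those in the FAM60A knockdown in a fit of all 12 arrays, which adds no arrays to those above. The difference (SDS3 change minus FAM60A change, log2) was -1.37 for PTGS2 (95% interval -1.82 to -0.92) and -1.13 for PLA2G4A (-1.42 to -0.84). It was -0.85 for CYP4F11 (-1.15 to -0.54) and -0.70 for CYP4F3 (-1.11 to -0.30). HPGD differed by -0.44 (-0.66 to -0.22), with a rise in one knockdown and no call in the other, and PTGES by -0.39 (-0.57 to -0.20). These 6 differences were called, all lower, where 25.3% of all tested genes were called (9.99% higher and 15.3% lower). At least 1.5-fold was reached by 4 of them, against 5.89% of all tested genes. That of CYP4F3 was -0.46 and not called after quantile normalization of the 12 arrays together. PTGS1 (0.23, 95% interval 0.01 to 0.45), PTGER2 (-0.18, -0.43 to 0.08), PTGER4 (0.01, -0.19 to 0.20) and ALOX5 (0.05, -0.20 to 0.30) were not called. The probe sets of PTGS1 disagreed here as well, since 1 of the dimmer ones differed by -0.37 and was called lower. The dimmer probe set of PTGES (-0.29) and 1 of the 4 of HPGD (-0.21) were not called, and the probe set shared by CYP4F2 and CYP4F3 differed by 0.03. The difference of CYP4F3 rests on SDS3 siRNA readings within the range of the absent-cell markers. That of CYP4F11 rests on SDS3 control and siRNA readings that all lay in that range, with a siRNA mean of 4.87, under the log2 level of 5. SUDS3 kept more of its level in its knockdown than SINHCAF did in its own, and the arrays of the experiments differ in overall signal, so the size of these differences cannot be told apart from either.

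Within groups the 4 falling genes shared some of their high and low arrays and not others. FAM60A control replicate 2 was the lowest of its group for PTGS2, PLA2G4A, CYP4F3 and CYP4F11, by 0.24, 0.20, 0.25 and 0.13 below the group mean. FAM60A siRNA replicate 2 was likewise the lowest for all 4, with deviations of -0.10, -0.07, -0.08 and -0.08. The highest array of both FAM60A groups was replicate 3 for PTGS2 and CYP4F11 but replicate 1 for PLA2G4A and CYP4F3. SDS3 control replicate 1 was the highest of its group for PTGS2 (0.24), PLA2G4A (0.14) and CYP4F3 (0.33), while for CYP4F11 it was replicate 3 (0.18). SDS3 siRNA replicate 3 was the highest for PTGS2 (0.36), PLA2G4A (0.16) and CYP4F3 (0.16) but the lowest for CYP4F11 (-0.14). These are single arrays, given as readings.

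The tested genes were ranked by how near their profile lay to that of PTGS2, as the root mean square distance over the 12 arrays, each array set against the mean of its own controls. PLA2G4A was the nearest of all, at 0.137 on the log2 scale. CYP1B1 (0.175), FGL1 (0.193), GPAT3 (0.205) and FGG (0.222) came next, of which FGG encodes a chain of fibrinogen and CYP1B1 a cytochrome P450. CYP1B1 changed by -0.96 in the FAM60A knockdown and -2.46 in the SDS3 knockdown. CYP4F3 held rank 11 (0.302) and CYP4F11 rank 93 (0.664). Nearest to HPGD were ABCB9 (0.0586), ANKIB1 (0.0597), WASL (0.0604), MANBA (0.0614) and TMCO4 (0.0620), and of the other members PTGER2 came closest, at rank 1874. The measure compares size and direction of change, and genes with small changes all lie near each other on it.

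A wider list of 74 eicosanoid genes gave 65 genes on the array and 63 tested. It was drawn up by role and not by how the genes moved, though with earlier results of these data known. In the FAM60A knockdown 8 were higher, 8 were lower and 47 were not called, with a median log2 change of -0.055. In the SDS3 knockdown 4 were higher, 13 were lower and 46 were not called, with a median of 0.002. In each knockdown the share called in either direction was smaller than that of all tested genes given above, and neither share is a test of the list. The counts by role below stand beside the same shares of all tested genes, and nothing is read from them. Leaving out 1 array gave 7 to 8 higher and 4 to 6 lower in the FAM60A knockdown, with 4 lower without FAM60A control replicate 1 or 3, 5 without any 1 siRNA array and 6 without control replicate 2. In the SDS3 knockdown the same gave 3 to 5 higher and 11 to 13 lower. With the spiked-in scaling 9 were called in the FAM60A knockdown, against 19.3% of all tested genes. The calls lost there were those of AKR1C3 (-0.27), ALOX15B (-0.26), PLA2G12A (-0.29), PTGES3 (-0.30), CYP2U1 (0.20), EPHX2 (0.22) and TBXAS1 (0.105). In the SDS3 knockdown 31 were called with that scaling, all lower, where 51.7% of all tested genes were called and 49.0% were lower, so nothing is read from the count. In both experiments PLA2G1B, PLA2G4C, PLA2G4D, TBXAS1, ALOX12, ALOX15B, DPEP2, PTGDR, PTGR2 and CYP4F2 read in the range of the absent-cell markers. ALOX5AP and CYP2U1 did so in the FAM60A experiment, and CYP4F12 and EPHX2 in the SDS3 experiment. In the FAM60A experiment the EPHX2 readings and the CYP4F12 siRNA readings lay at the upper end of that range. These levels are not shown to be above background.

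**Figure D5:**
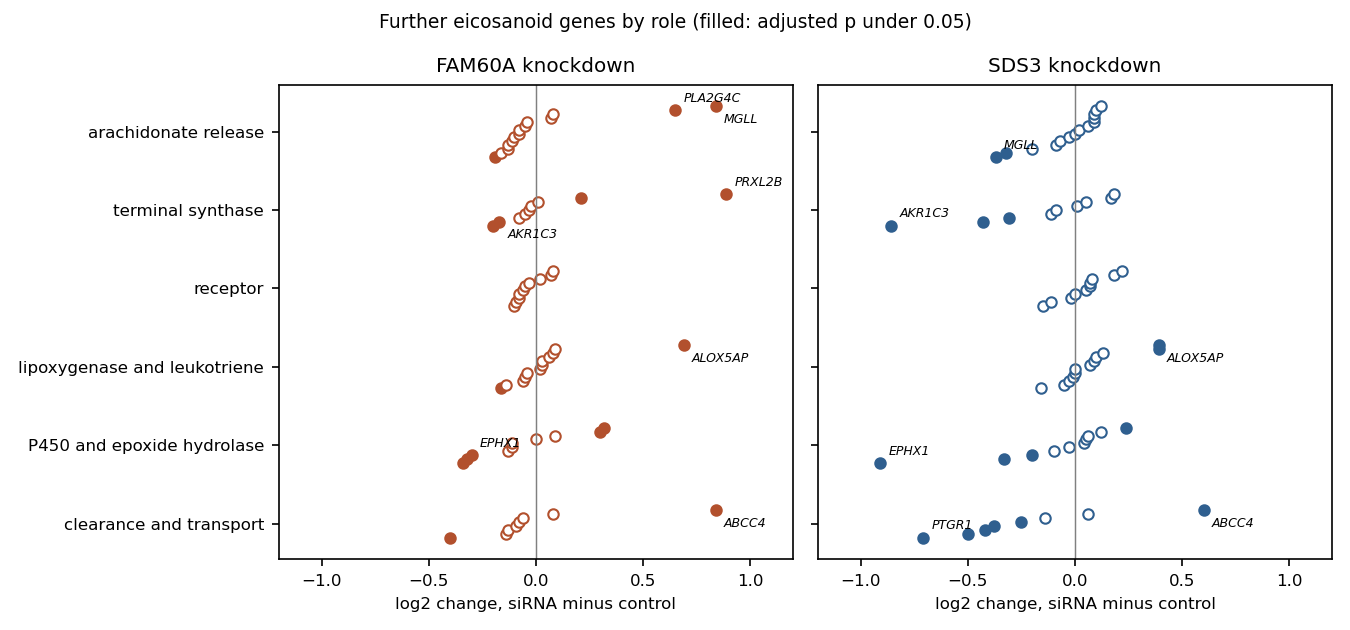
Log2 change (siRNA minus control) of the 63 tested genes of the wider list by role, in the FAM60A knockdown (left) and the SDS3 knockdown (right), filled where the limma adjusted p was under 0.05. MGLL stands at 0.84 on the left and -0.37 on the right, and none of the 10 receptors is filled on either side.

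Among the genes for arachidonic acid release, 2 of 14 were higher and 1 was lower in the FAM60A knockdown, and 2 were lower in the SDS3 knockdown. MGLL, a lipase that can free arachidonic acid from its glycerol ester, went opposite ways. It read 11.04, 11.08 and 10.95 in the FAM60A controls and 11.75, 11.86 and 11.96 with the siRNA, and rose by 0.84 (SE 0.0681, limma adjusted p = 4.59e-06). The SDS3 arrays gave 10.68, 10.54 and 10.50 and then 10.25, 10.14 and 10.22, and MGLL fell by 0.37 (SE 0.0635, limma adjusted p = 0.00206). The difference of -1.21 was itself called (limma adjusted p = 7.96e-07). PLA2G4C, a phospholipase A2 related to PLA2G4A, rose by 0.65 (limma adjusted p = 3.16e-05) in the FAM60A knockdown and changed by -0.07 in the SDS3 knockdown. That rise rests on a probe set that can bind related transcripts, and without such probe sets the change was -0.09 and not called. PLA2G12A, a secreted phospholipase A2, fell by 0.19 (limma adjusted p = 0.0254) and 0.32 (limma adjusted p = 0.00376), a pair of calls lost at -0.16 and -0.11 without probe sets of that kind. Its FAM60A call was also lost, at -0.20 to -0.16, without control replicate 1, 2 or 3 or siRNA replicate 1 or 2. PLA2G1B (-0.16 and -0.20) and PLA2G4D (-0.13 and 0.09) did not pass, but PLA2G1B was called in the SDS3 knockdown at -0.29 without control replicate 2.

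Of 9 terminal synthases, 2 were higher and 2 lower in the FAM60A knockdown, and 3 were lower in the SDS3 knockdown. PRXL2B, a prostaglandin F synthase, read 8.70, 8.69 and 8.78 in the FAM60A controls and 9.64, 9.61 and 9.60 with the siRNA, and rose by 0.89 (SE 0.0546, limma adjusted p = 5.64e-07). In the SDS3 knockdown it changed by 0.17 (limma adjusted p = 0.0761), which was called at 0.23 without SDS3 control replicate 1, and the difference of -0.72 was called. AKR1C3, which also makes prostaglandin F, read 14.72, 14.73 and 14.79 in the SDS3 controls and 13.91, 13.82 and 13.93 with the siRNA, and fell by 0.86 (SE 0.0536, limma adjusted p = 9.16e-06). In the FAM60A knockdown it fell by 0.17 (limma adjusted p = 0.0261), a call lost at -0.17 to -0.16 without control replicate 1 or 3 or siRNA replicate 2 or 3. TBXAS1, the thromboxane synthase, rose by 0.21 (limma adjusted p = 0.0252) with the FAM60A siRNA and fell by 0.43 (limma adjusted p = 0.00281) with the SDS3 siRNA. The FAM60A call of TBXAS1 was lost at 0.15 to 0.21 without control replicate 1, 2 or 3 or siRNA replicate 2 or 3, and at 0.10 without probe sets of shared sequence. CBR1, a carbonyl reductase, fell by 0.31 (limma adjusted p = 0.00353) in the SDS3 knockdown. PTGES3, a PGE2 synthase and HSP90 cochaperone, fell by 0.20 (limma adjusted p = 0.0128) in the FAM60A knockdown, a call lost at -0.18 without FAM60A control replicate 1.

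None of the 10 tested receptors was called in either knockdown, at limma adjusted p-values from 0.0514 upward. PTGDR, a prostaglandin D2 receptor, came nearest at 0.22 in the SDS3 knockdown and passed there with the replicate block, with array weights, with all 12 arrays in 1 fit and without SDS3 siRNA replicate 3. LTB4R, a receptor for leukotriene B4, changed by -0.05 and -0.11 on its brightest probe set, which can bind related transcripts. Without such probe sets LTB4R rose by 0.49 (limma adjusted p = 0.00112) and 0.23 (limma adjusted p = 0.0361), so its direction depends on the probe set. OXER1 changed by -0.03 and 0.18.

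Of 12 lipoxygenase and leukotriene genes, 1 was higher and 1 lower in the FAM60A knockdown, and 2 were higher in the SDS3 knockdown. ALOX5AP, which presents arachidonic acid to ALOX5, read 7.72, 8.13 and 7.76 in the FAM60A controls and 8.57, 8.52 and 8.61 with the siRNA, and rose by 0.69 (SE 0.0962, limma adjusted p = 0.000204). The SDS3 arrays gave 9.40, 9.66 and 9.69 and then 10.03, 9.95 and 9.92, and ALOX5AP rose by 0.39 (SE 0.0820, limma adjusted p = 0.00629). ALOX12, another lipoxygenase, rose by 0.39 (limma adjusted p = 0.00185) in the SDS3 knockdown. With the spiked-in scaling these SDS3 rises were 0.06 and 0.07 and neither was called. ALOX15B fell by 0.16 (limma adjusted p = 0.0375) in the FAM60A knockdown, a call lost at -0.18 to -0.14 without any 1 of the 6 arrays, and DPEP2 changed by -0.14 and 0.00. The FAM60A change of DPEP2 was called at -0.22 without control replicate 1.

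Among 10 further P450 and epoxide hydrolase genes, 2 were higher and 3 lower in the FAM60A knockdown, and 1 was higher and 3 were lower in the SDS3 knockdown. EPHX1, the microsomal epoxide hydrolase, read 13.30, 13.16 and 13.41 in the FAM60A controls and 12.98, 12.88 and 13.10 with the siRNA, and fell by 0.30 (SE 0.0784, limma adjusted p = 0.0108). It read 10.92, 10.57 and 10.68 in the SDS3 controls and 9.76, 9.75 and 9.94 with that siRNA, and fell by 0.91 (SE 0.0956, limma adjusted p = 0.000139). EPHX2, the soluble epoxide hydrolase that acts on epoxides of arachidonic acid, rose by 0.32 (limma adjusted p = 0.00141) in the FAM60A knockdown and changed by -0.10 in the other. With the spiked-in scaling the rise was 0.22 and not called, and the SDS3 change was -0.42 and called. CYP2U1, a fatty acid hydroxylase, rose by 0.30 (limma adjusted p = 0.00313) and 0.24 (limma adjusted p = 0.0291). Neither call held with the spiked-in scaling (0.20 and -0.09), and the second was also lost at 0.19 to 0.24 without control replicate 2 or 3 or siRNA replicate 2 or 3. The other genes called lower in both knockdowns were CYP4F2 and CYP4F12.

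Of 8 clearance and transport genes, 1 was higher and 1 lower in the FAM60A knockdown, and 1 was higher and 5 were lower in the SDS3 knockdown. Of all tested genes 18.8% were lower in the SDS3 knockdown, and nothing is read from the 5, which include the paralogs AKR1C1 and AKR1C2. ABCC4, a transporter that carries prostaglandins out of cells, read 10.18, 9.92 and 10.11 in the FAM60A controls and 10.91, 10.95 and 10.86 with the siRNA, and rose by 0.84 (SE 0.0722, limma adjusted p = 6.63e-06). It read 9.18, 9.28 and 9.28 in the SDS3 controls and then 9.82, 9.80 and 9.91, and rose by 0.60 (SE 0.0561, limma adjusted p = 7.5e-05), which the spiked-in scaling reduced to 0.27 with no call. PTGR1, a reductase of prostaglandin metabolites, read 12.98, 12.93 and 12.93 in the SDS3 controls and 12.27, 12.19 and 12.24 with the siRNA, and fell by 0.71 (SE 0.0501, limma adjusted p = 1.62e-05). ABCC1, an exporter of leukotriene C4, fell by 0.50 (limma adjusted p = 0.00141) in the SDS3 knockdown, AKR1C1 by 0.42 (limma adjusted p = 0.000339) and AKR1C2 by 0.38 (limma adjusted p = 0.000467). With the FAM60A siRNA AKR1C2 changed by -0.08 and was not called, but it was called at -0.29 without probe sets of shared sequence, at -0.17 with the mean of its probe sets and at -0.08 with a trended, robust eBayes. PTGR1 was likewise not called there at -0.14, and was called at -0.19 with the mean of its probe sets and at -0.14 with all 12 arrays in 1 fit, with the trended eBayes and with a level filter at log2 7. CBR3 fell by 0.25 (limma adjusted p = 0.00956) in the SDS3 knockdown, and PTGR2 fell by 0.40 (limma adjusted p = 0.0306) in the FAM60A knockdown. Both were named after their values were seen. AKR1C1, AKR1C2 and AKR1C3 are closely related paralogs whose probe sets may share signal. AKR1C1, AKR1B10 and NQO1, all known NRF2 targets that A549 cells express strongly, were lower in the SDS3 knockdown (3 of 3, by 0.22 to 0.54, against 18.8% of all tested genes). With the FAM60A siRNA they changed by -0.06, -0.06 and -0.09 without a call. The FAM60A controls of AKR1C1 and AKR1C2 both read 15.26, where the highest reading of any probe set was 15.43 and 16 and 20 probe sets were brighter, so the arrays may not show a change in these genes in that experiment. Their part in the falls of PTGR1, ABCC1 and the AKR1C genes was not tested.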

How the data were processed

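The authors deposited 1 intensity value per probe set and array, on a linear scale. The submitters' processing notes give RMA as the tool, with no version; which arrays it was run on together was not stated in the sources used here. RMA equalizes the distributions of the arrays it is given, so a shift common to most RNAs would not be seen here. The tests had been set for log2 values; the values proved linear, and their log2 was taken. Of the probe sets, 41097 carried a single symbol in the platform annotation, 1801 several and 11777 none; 41043 symbols were brought up to date with RefSeq's genes of GRCh38.p14. Each gene stands for its brightest probe set (mean over 12 arrays). The filter on low signal asked for log2 5 on 3 or more of the 12 arrays. The fits used limma 3.58.1 under R 4.3.3, with eBayes after lmFit and p-values adjusted by Benjamini-Hochberg across every tested gene (0.05), on 6 arrays for each knockdown and on 12 for their difference. The data.table package (1.17.8) read the files, and the steps were tested on simulated data. The precision is limited by 3 arrays a group, and, since no label says the arrays came from separate cultures, the p-values may reflect technical spread alone. The members and the wider and marker lists were chosen with earlier results of these data known. Named were both targets, all members, wider-list genes that passed at 1.5-fold or more with up to 3 further genes of each role by smallest p, the 5 genes nearest to PTGS2 and to HPGD, and the markers; neighbours in the genome were added by position. Replicate numbers did not pair the arrays: deviations of same-numbered arrays correlated at -0.118 to -0.072 in the FAM60A experiment and -0.078 to 0.034 in the SDS3 experiment. Other settings tried are given in the closing section. Promoter windows came from RefSeq (GRCh38.p14), and siRNA, probe and protein sequences were not used here.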

Additional observations from a re-analysis of the deposited data

Results flagged for a closer look

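The 2 knockdowns differed in their effect on 6 of the 10 member genes, by the contrast of both changes in a limma fit of 12 arrays; the members were chosen with both changes known, so these are descriptions. The differences (SDS3 change minus FAM60A change, log2) were -1.37 for PTGS2, -1.13 for PLA2G4A, -0.85 for CYP4F11, -0.70 for CYP4F3, -0.44 for HPGD and -0.39 for PTGES. Those of CYP4F11 and CYP4F3 rest on SDS3 siRNA readings not shown to be above background, and for CYP4F11 on such SDS3 control readings too. HPGD was higher in the FAM60A knockdown and not called in the SDS3 knockdown, while the other 5 stood lower with the SDS3 siRNA than with the FAM60A siRNA relative to their controls.

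Of the 63 tested genes of the wider list 13 differed by the same test, where 25.3% of all tested genes did. All 13 were among the named genes, which were picked by their results in the same knockdowns, so nothing is read from the count. Each value is the SDS3 change minus the FAM60A change on the log2 scale. MGLL differed by -1.21 (limma adjusted p = 7.96e-07), with opposite calls in the 2 knockdowns. PLA2G4C and PRXL2B each differed by -0.72, AKR1C3 by -0.69, TBXAS1 by -0.63 and EPHX1 by -0.60. PTGR1 and ABCC1 each differed by -0.58, EPHX2 by -0.42, AKR1C1 by -0.36, AKR1C2 by -0.30 and CBR1 by -0.23. ALOX12 was the only one of these with a positive difference, at 0.43. With the spiked-in scaling that of ALOX12 was 0.21 and that of AKR1C2 -0.52, and neither was called. AKR1C1 and AKR1C2 read near the top of the FAM60A arrays, which may limit how much of their change is seen there. The difference of PLA2G4C was -0.05 and not called without probe sets of shared sequence, and that of CBR1, at a limma adjusted p of 0.0483, was lost without any 1 of FAM60A control replicates 1 and 3, the 3 FAM60A siRNA replicates, SDS3 control replicates 1 and 2 and the 3 SDS3 siRNA replicates, at -0.24 to -0.18.

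The targets differed as their labels say, SINHCAF by 3.04 and SUDS3 by -1.62. SINHCAF was also higher in the SDS3 knockdown than in its controls, by 0.35 (limma adjusted p = 0.00291), a rise that was 0.03 and not called with the spiked-in scaling.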

How the results depend on the processing

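The falls of PTGS2, PLA2G4A, CYP4F3 and CYP4F11 in both knockdowns and of PTGES in the SDS3 knockdown kept their direction and their call in all 17 alternatives that changed the data or the fit. Not all of these could move them. PLA2G4A, CYP4F3 and CYP4F11 have 1 probe set each, so the choice of probe sets left their values as they were. Leaving out probe sets of shared sequence could not change PTGS2 or PTGES either. The level filters could move only the adjusted p, not the size of a change. At a minimum of 1.5-fold the falls of CYP4F11 in the FAM60A knockdown (1.28-fold) and of PTGES in the SDS3 knockdown (1.37-fold) were not called. With the replicate number as a block, which the numbers do not support, 5 members were called in each knockdown and 6 in the difference, and 6239, 5848 and 4003 genes overall against 6855, 6439 and 4716; the block took the lower wider genes in the FAM60A knockdown from 8 to 4 and moved no total count by over 1.5 times. Leaving out 1 array at a time gave 5 to 6 called members in the FAM60A knockdown, 5 in the SDS3 knockdown and 6 to 7 in the difference, and 11 to 13, 15 to 18 and 12 to 14 wider genes. A minimum of 1.5-fold left 1367, 1296 and 1097 genes in the FAM60A knockdown, the SDS3 knockdown and the difference; 3 members in the FAM60A knockdown; 5, 4 and 6 wider genes; and 4, 5 and 5 member probe sets, against 7, 9 and 10. An adjusted p under 0.01 left 9 wider genes in the FAM60A knockdown (7 higher, 2 lower), 4277 genes in the SDS3 knockdown and 2811 in the difference. Scaling on 24 spiked-in probe sets, whose signal rose by 0.101 and 0.323 relative to the other arrays, gave 3600 genes in the FAM60A knockdown (1349 higher, 2251 lower, against 3577 and 3278), 9618 in the SDS3 knockdown (497 and 9121, against 2941 and 3498) and 2533 in the difference (192 and 2341, against 1861 and 2855), 9 and 31 wider genes, 8 members and 16 member probe sets in the SDS3 knockdown. It also turned the FAM60A changes of PTGER4 (-0.097), ABCC1 (-0.016), PTGDR (-0.020) and SUDS3 (-0.061) and the SDS3 changes of PTGS1 (-0.252), PTGER4 (-0.312), PRXL2B (-0.153), CYP2U1 (-0.085), PLA2G4D (-0.229), PTGDR (-0.102) and OXER1 (-0.141). The mean of all probe sets turned the FAM60A changes of PTGER4 (-0.006), ALOX5 (0.087), LTB4R (0.189) and SUDS3 (-0.119) and the SDS3 changes of PTGS1 (-0.108), ALOX5 (0.076), ALOX15B (0.095) and LTB4R (0.010). Without probe sets of shared sequence the FAM60A changes of PTGER4 (-0.015), PLA2G4C (-0.094), LTB4R (0.493) and SUDS3 (-0.277) and the SDS3 change of LTB4R (0.226) turned, and array weights turned DPEP2 in the SDS3 knockdown (0.003). Leaving out 1 array spread the FAM60A changes of PTGER4 from -0.057 to 0.053, OXER1 from -0.066 to 0.025 and SUDS3 from -0.035 to 0.083, and the SDS3 changes of PTGER2 from -0.058 to 0.011, PTGER4 from -0.017 to 0.048, ALOX5 from -0.095 to 0.056, ALOX15B from -0.118 to 0.040 and DPEP2 from -0.045 to 0.032. The cause of each turn was not tested. Among the members, signal near background limits PTGS1, PTGER2, PTGER4, ALOX5 and, on the SDS3 arrays, CYP4F11, the CYP4F3 siRNA readings and those of the dimmer PTGS2 probe set. It also limits the wider-list genes named above as reading in the range of the absent-cell markers.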
